A study of Mus musculus with 2 samples.

Results

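The families described here are the class II endogenous retroviruses (ERVs) of the mouse that bear neither RLTR nor IAP names. They were chosen by name alone: every family annotated as ERVK, leaving out names that start with RLTR, IAP or MMERVK10C and names with ETn or MusD. This gave 45 of the 150 ERVK families, among 634 transposable element families in all. RNA was taken from mouse embryonic stem (ES) cells of the B6/129 strain background and the genotype Daxx fl/fl; RosaCreERT, in which a Cre recombinase that responds to tamoxifen can remove the floxed Daxx gene. Deletion was induced in 1 culture with 1 µM 4-hydroxytamoxifen (4-OHT), applied for 48 h and with 3 days of recovery; the control was given DMSO, the solvent. Both cultures carried the floxed alleles and the Cre, and both grew on inactivated feeder cells. Because 4-OHT was given to 1 culture only, exposure to the drug, activity of Cre and loss of Daxx cannot be told apart. With 1 library in each group there is no replicate error and no test was run, and every difference below compares 2 libraries. Values are given with the control first. The table held values for element families and for 0 of 11 genes sought, so the levels of Daxx, of ES cell markers and of feeder markers were not analysed here. Which library is which is known from the labels alone.

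An ERV is the remnant of a retrovirus that entered the germ line. An intact copy has an internal part with the viral genes between a pair of long terminal repeats (LTRs), which hold the promoter; recombination between the LTRs leaves solitary LTRs, the most common remains. Class II ERVs are related to betaretroviruses. In ES cells many of them are silenced by repressive histone methylation, and Daxx, a chaperone of the histone variant H3.3 that works with Atrx, has been linked to that silencing. The RMER families are LTRs and internal parts of rodent genomes, MMTV is the mouse mammary tumour virus, whose endogenous copies are inherited in mice, and BGLII, MYSERV, MurERV4, MERVK26, RNERVK23, RNLTR23 and SRV_MM are further class II names. Of the 45 families, 31 bear RMER names and 4 BGLII names; 14 are internal parts, marked by -int, and 31 are taken here as LTRs because their names lack that mark.

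All levels are in RPKM, reads per kilobase of element scaled to the exonic gene reads of the library, and a value sums copies scattered over the genome. The 45 families together have 97037 annotated copies, from 1 for RMER3D1 to 8412 for RMER17C, with a median of 1800. Their levels were low. The median of the 45 families was 0.0196 RPKM in control cells and 0.0197 RPKM after deletion, against 0.0209 and 0.0269 RPKM for the median of all 634 families. Each median was taken within 1 library, so a pair of medians is no measure of change. For the 45 families it fell on RMER20B in the control and on BGLII_B after deletion. None reached a mean of 0.5 RPKM, and 3 reached 0.1 RPKM. The 4 LTRs RMER3D1, RMER3D2, RMER3D3 and RMER3D4, with 1, 7, 8 and 4 copies, were listed at 0 in both libraries. The libraries' depth is unknown, so no counting error can be attached to these levels.

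Most of the families had a somewhat higher value in the Daxx-deleted library, and few by much. Of the 41 families with a value, 33 were higher and 8 were lower. These include 6 families under the floor used below, and the share over all families with a value is not given here. Counts from here on use the 35 families that have 100 or more copies and average 0.01 RPKM or more over both libraries, and a log2 change computed with 0.001 RPKM added to both values. Among them 28 were higher and 7 lower, or 80% higher, where 78.9% of all 436 families at the same floor were higher and 21.1% were lower. The 28 include 4 with control values under 0.01 RPKM: RMER13A, RMER17A, RMER17B and MYSERV16_I-int. These passed the floor only through the Daxx-deleted value, while 0 of the 35 had a Daxx-deleted value under 0.01 RPKM. At least a 1.5-fold higher value was found for 8 of the 35 (22.9%), against a background of 15.1% of the 436. RMER13A and RMER17A, both among the 8, had control values of 0.00884 and 0.00854 RPKM. They reached the floor only with the help of the Daxx-deleted value. A 2-fold higher value was found for 1 of the 35 (2.86%), against a background of 5.28%. With 0.01 RPKM added in place of 0.001 these counts were 3 and 0. The shares of the 436 families printed here hold for 0.001 RPKM and are no background for those changed counts. None was 1.5-fold or 2-fold lower, where 1.38% and 0.459% of the 436 were. The median log2 change was 0.24, with quartiles of 0.10 and 0.51, while the median of the 436 families was 0.18. Relative to that median family 25 of the 35 were higher, where 50% of the 436 are by definition. On that scale 1 was still 1.5-fold higher, against 9.4% of the 436, and 0 were 1.5-fold lower, against 2.75%.

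**Figure D1:**
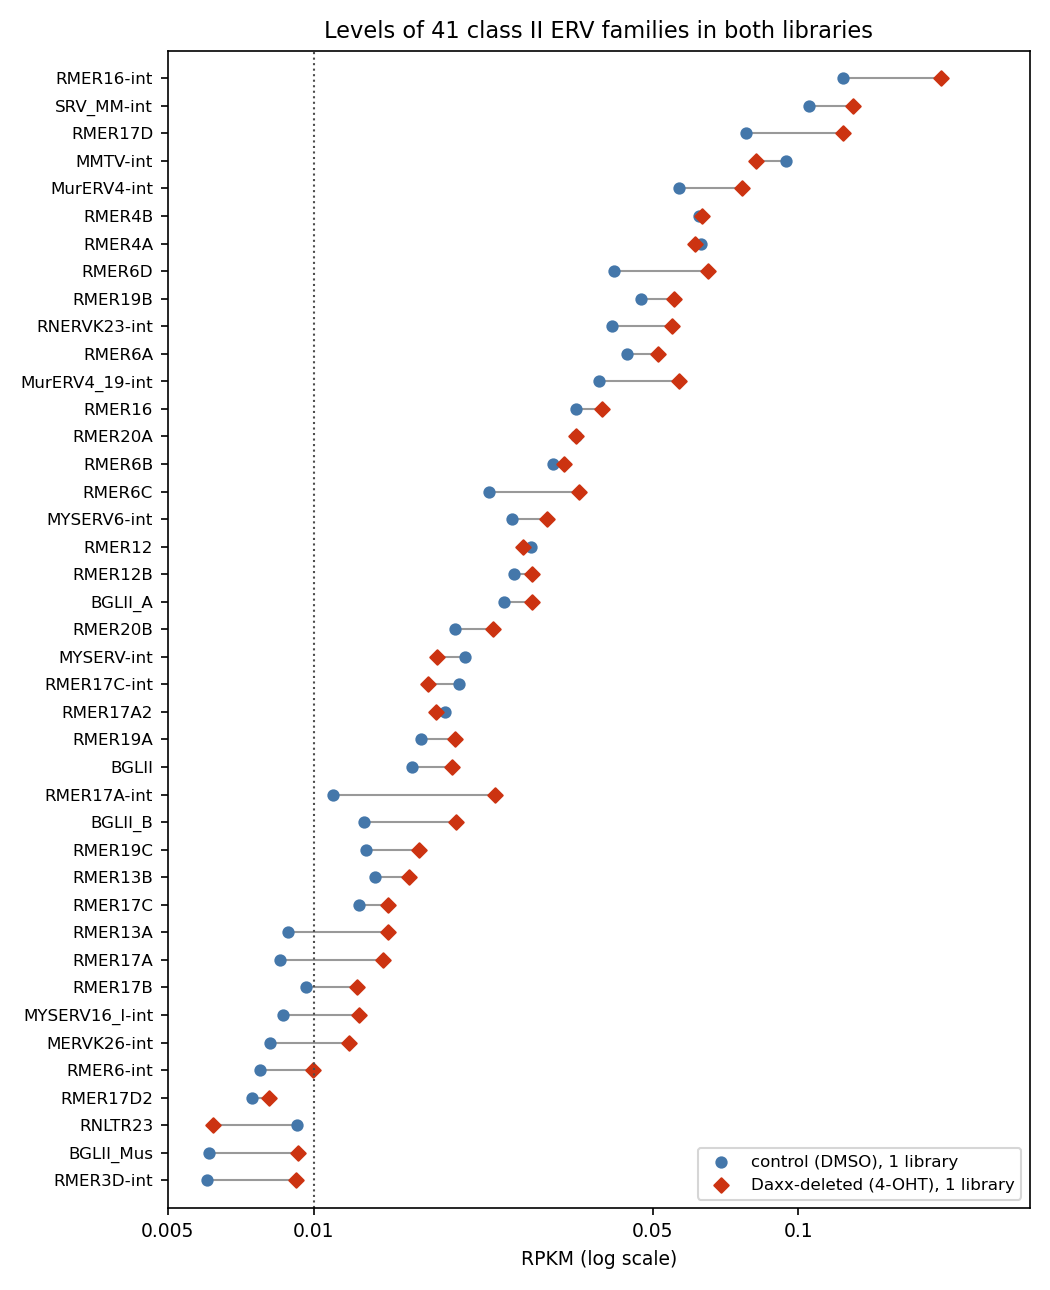
Level in RPKM (log axis) of the 41 class II ERV families with a value, in the control library (circles) and the Daxx-deleted library (diamonds), ordered by mean level; each point is 1 library and the dotted line marks 0.01 RPKM. The diamond lies to the right of the circle in 33 families, and the widest gap on this scale is that of RMER17A-int.

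The highest level and the largest difference in RPKM belonged to RMER16-int, an internal part with 3498 copies. It stood at 0.123 RPKM in control cells and 0.197 RPKM after deletion. The ratio was 1.59 and the log2 change 0.67. This was the 68th highest mean level among all 634 families and the 52nd highest log2 change among the 436. The difference of 0.0733 RPKM was 24% of the net difference summed over the 45 families. RMER16, the LTR of the same name with 1998 copies, stood at 0.0347 and 0.0394 RPKM, a log2 change of 0.18 that equals the median of all families to 2 decimals. The internal part was therefore at 3.55 times the level of the LTR in the control and 4.99 times in the Daxx-deleted library.

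The RMER17 series held both the highest log2 change and the second lowest of the 35 families. RMER17A-int, an internal part with 400 copies, was the 1 family past 2-fold, at 0.0110 RPKM in control cells and 0.0236 RPKM after deletion. Its ratio was 2.15, its log2 change 1.04 and its difference 0.0126 RPKM. Relative to the median family the log2 change was 0.86, below 2-fold. With a minimum of 1000 copies this family is not counted. RMER17A, the LTR of the same name with 1800 copies, stood at 0.00854 and 0.0139 RPKM (ratio 1.62). RMER17A2, a second LTR subtype with 1636 copies, stood at 0.0187 and 0.0179 RPKM (ratio 0.959), near equality. RMER17D, an LTR with 1154 copies, had a higher level than the other LTRs described here, at 0.0778 and 0.124 RPKM. Its ratio was 1.59, and its difference of 0.0459 RPKM was the second largest of the 45 families, 15% of their net difference. RMER17D2, a related subtype with 1562 copies that fell under the floor, stood at 0.00747 and 0.00808 RPKM, near equality.

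None of the remaining RMER17 families reached 1.5-fold. RMER17C, the LTR with the most copies, stood at 0.0124 and 0.0142 RPKM, a log2 change of 0.18. RMER17C-int, its internal part with 1925 copies, was lower, at 0.0200 and 0.0172 RPKM, a log2 change of -0.20. In this pair the internal part was thus lower and the LTR slightly higher, the reverse of the order in RMER16, and the internal level went from 1.61 to 1.21 times that of the LTR. RMER17B, with 3766 copies, stood at 0.00964 and 0.0123 RPKM. Of the 7 RMER17 families at the floor, 5 were higher, 3 of them by at least 1.5-fold, and their median log2 change was 0.32. Over all 436 families at the floor 78.9% were higher and 15.1% were 1.5-fold higher. In this series the shares were 71.4% and 42.9%, over 7 families only. RMER17A and RMER17B, with control values under 0.01 RPKM, reached the floor only with the help of their Daxx-deleted values. RMER17A is counted among the 3 past 1.5-fold, and the median of 0.32 is the log2 change of RMER17B.

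The RMER6 LTRs split by subtype. RMER6D, with 2396 copies, stood at 0.0416 and 0.0649 RPKM (ratio 1.56), and RMER6C, with 4839 copies, at 0.0230 and 0.0352 RPKM (ratio 1.53). Both were past 1.5-fold. RMER6A, with 3964 copies, stood at 0.0443 and 0.0512 RPKM (ratio 1.16), and RMER6B, with 2006 copies, at 0.0311 and 0.0329 RPKM (ratio 1.06). In the control RMER6D lay below RMER6A, and in the Daxx-deleted library it lay above it. RMER6-int, with 613 copies and a mean under the floor, stood at 0.00777 and 0.00996 RPKM.

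**Figure D2:**
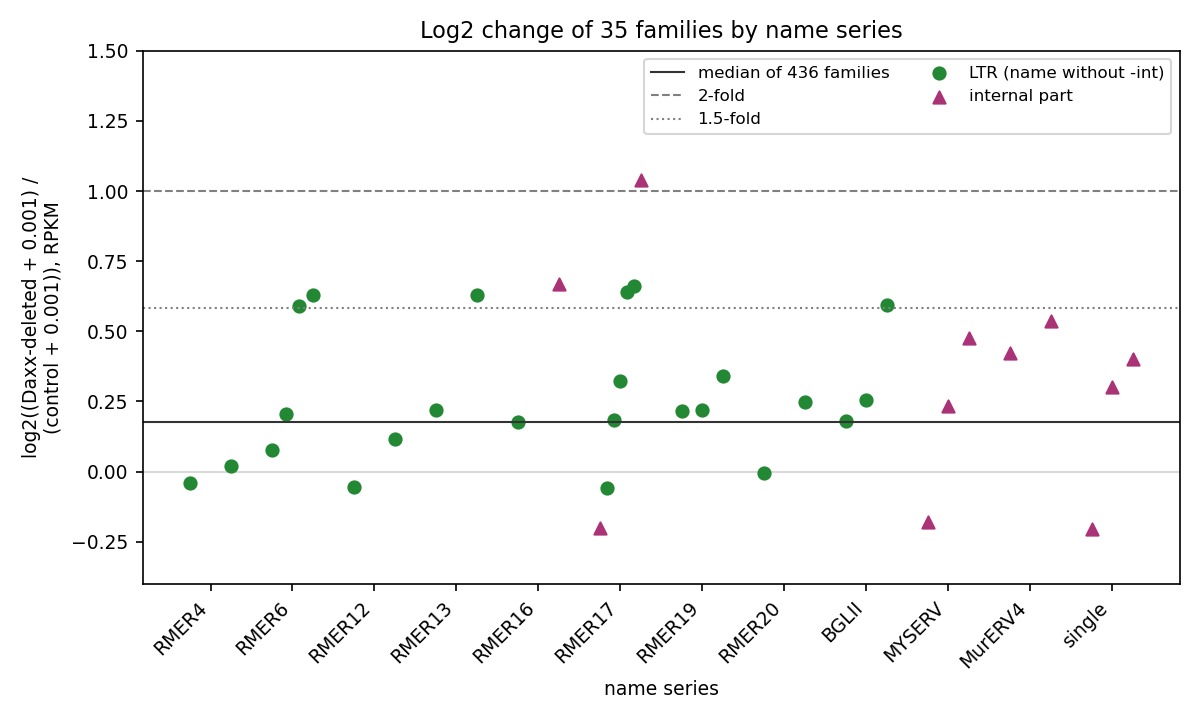
Log2 change of the 35 families at the floor, grouped by name series on the horizontal axis; triangles are internal parts, circles are LTRs, each point is 1 family from 1 library per group, and "single" holds MMTV-int, SRV_MM-int and RNERVK23-int. The solid line at 0.18 is the median of 436 families; RMER17 runs from -0.20 to 1.04, while the RMER19 families lie between 0.22 and 0.34.

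The other RMER series were narrower. RMER13A, an LTR with 2915 copies, stood at 0.00884 and 0.0142 RPKM (ratio 1.61), and RMER13B, with 2191 copies, at 0.0134 and 0.0158 RPKM (ratio 1.18). RMER13A and RMER17A are 2 of 4 families at the floor whose control value alone was under 0.01 RPKM, so they passed with the help of the Daxx-deleted value. The 3 RMER19 LTRs were alike in their change although their levels differed: RMER19A stood at 0.0167 and 0.0196 RPKM, RMER19B at 0.0474 and 0.0554 RPKM, and RMER19C at 0.0128 and 0.0165 RPKM. Their log2 changes ran from 0.22 to 0.34. RMER20B stood at 0.0196 and 0.0234 RPKM, while RMER20A, at 0.0348 and 0.0347 RPKM, had nearly the same value in both libraries.

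The RMER4 and RMER12 LTRs were near equality. RMER4A stood at 0.0629 and 0.0611 RPKM and RMER4B at 0.0624 and 0.0634 RPKM, with 2806 and 4989 copies, so these LTRs of like level had ratios of 0.971 and 1.02. RMER12 stood at 0.0280 and 0.0270 RPKM, with 5578 copies, and RMER12B at 0.0259 and 0.0282 RPKM, with 1038 copies. All 4 lay below the median family in log2 change. RMER3D-int, an internal part with 2661 copies, stood at 0.00602 and 0.00919 RPKM, under the floor. The 4 LTRs listed at 0, RMER3D1 to RMER3D4, share its name but have 1 to 8 copies each; whether the table lists all their copies, and whether they belong to that internal part, is not given in the labels or the file headers. Over the 24 RMER families at the floor, 19 were higher, 7 of them by at least 1.5-fold, and the median log2 change was 0.22. The share of higher values, 79.2%, was close to the 78.9% of all 436 families, and 29.2% were 1.5-fold higher, against 15.1% of all. The 19 higher families include RMER13A, RMER17A and RMER17B, which reached the floor only with the help of the Daxx-deleted value. RMER13A and RMER17A are also among the 7 past 1.5-fold.

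Outside the RMER names, MMTV-int had the lowest log2 change at the floor. This internal part of the mouse mammary tumour virus, a betaretrovirus whose LTR is known for its response to steroid hormones, has 144 copies and stood at 0.0944 RPKM in control cells and 0.0818 RPKM after deletion. Its ratio was 0.867 and its log2 change -0.20, or -0.38 relative to the median family. In the control it had the third highest level of the 45 families, and in the Daxx-deleted library the fourth. SRV_MM-int, with 240 copies and the second highest level in both libraries, stood at 0.105 and 0.130 RPKM (ratio 1.23). No difference of MMTV-int or SRV_MM-int reached 1.5-fold.

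The MurERV4 internal parts were both higher, as were 78.9% of all 436 families at the floor. MurERV4-int, with 1517 copies, stood at 0.0568 and 0.0765 RPKM (ratio 1.35). MurERV4_19-int, with 978 copies, stood at 0.0387 and 0.0567 RPKM (ratio 1.46), and was the family closest below the 1.5-fold threshold with a log2 change of 0.54. The families closest above it were RMER6C, with a log2 change of 0.59, and BGLII_B, also 0.59.

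The 3 MYSERV internal parts differed in direction. MYSERV-int stood at 0.0205 and 0.0179 RPKM (ratio 0.876), with 1433 copies. MYSERV6-int, with 3135 copies, stood at 0.0256 and 0.0303 RPKM (ratio 1.18), and MYSERV16_I-int, with 2503 copies, at 0.00865 and 0.0124 RPKM (ratio 1.44). The mean of MYSERV16_I-int, 0.0105 RPKM, lay just above the floor, and that of MERVK26-int, 0.00998 RPKM, just under it. MYSERV16_I-int reached the floor only with the help of its Daxx-deleted value. MERVK26-int, with 1003 copies, stood at 0.00814 and 0.0118 RPKM (ratio 1.45).

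The BGLII repeats were all higher, by unequal amounts, where 78.9% of all 436 families at the floor were higher. BGLII_B stood at 0.0127 and 0.0197 RPKM (ratio 1.55). BGLII, with 2265 copies, stood at 0.0160 and 0.0193 RPKM, BGLII_A at 0.0247 and 0.0282 RPKM, and BGLII_Mus, under the floor, at 0.00609 and 0.00927 RPKM. BGLII_A, which had the highest level of the 4 and 307 copies, had the smallest ratio, 1.14. RNERVK23-int, with 737 copies, stood at 0.0412 and 0.0548 RPKM (ratio 1.33). RNLTR23, an LTR that bears the same number and has 341 copies, was lower, at 0.00926 and 0.00620 RPKM (ratio 0.670) at a level under the floor. Whether these names belong to 1 element is not given in the sources used here.

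Internal parts and LTRs were compared as a description over families, which are not replicates of a condition. The 11 internal parts at the floor had a median log2 change of 0.40 and ran from -0.20 to 1.04; 8 (72.7%) were higher and 2 (18.2%) were past 1.5-fold. The 24 LTRs had a median of 0.22 and ran from -0.06 to 0.66; 20 (83.3%) were higher and 6 (25%) were past 1.5-fold. RMER13A, RMER17A and RMER17B, whose control values alone were under the floor, are among the 20 higher LTRs. RMER13A and RMER17A are also among the 6. MYSERV16_I-int, whose control value was likewise under the floor, is among the 8 higher internal parts. Of all 436 families 78.9% were higher and 15.1% were 1.5-fold higher. The ranges overlap over the whole span of the LTRs. In the remaining ERVK families of the table, 15 internal parts had a median of 0.45 and 79 LTRs a median of 0.22. Across the 35 families, Spearman's rho between the log2 change and the number of copies was 0.01, and between the log2 change and the mean level it was -0.09. Over all 436 families at the floor the corresponding values were -0.03 and -0.26. These points share the same libraries.

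**Figure D3:**
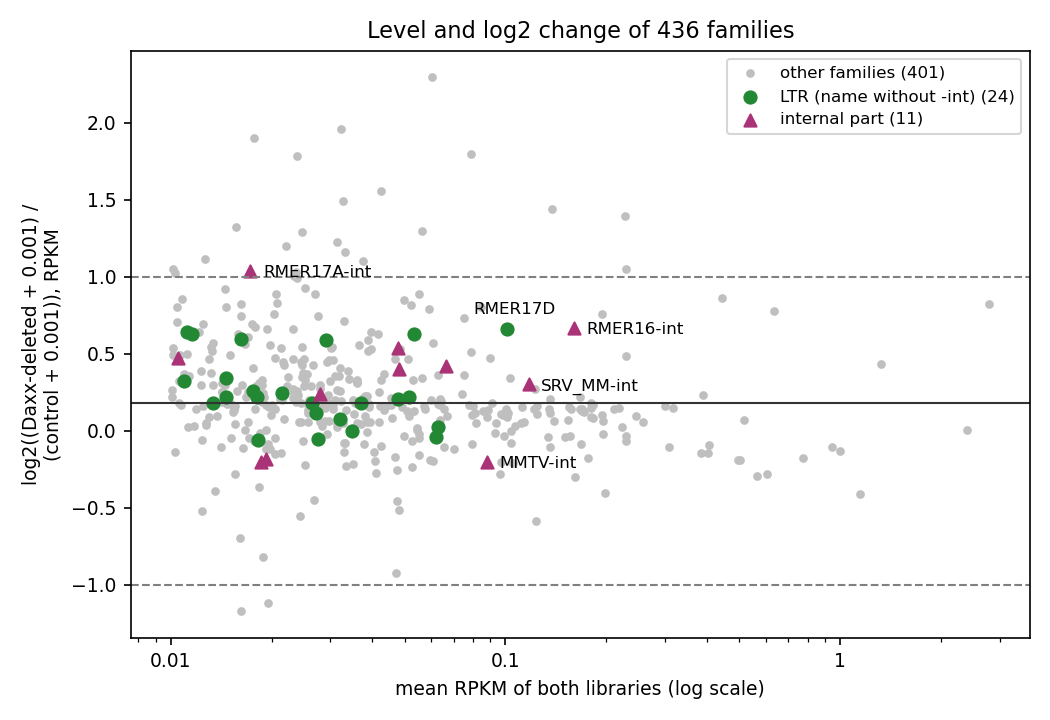
Mean RPKM of both libraries (log axis) against log2 change for 436 families at the floor; grey points are the 401 other families, green circles the 24 LTRs and purple triangles the 11 internal parts described here, dashed lines mark 2-fold and the solid line the median of 0.18. The 35 families lie within -0.20 and 1.04, inside the span of the grey points, and RMER17A-int is the 1 above the upper dashed line.

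The 35 families lay closer to the RLTR families than to the IAP families, by their medians. The median log2 change was 0.20 over 47 RLTR families outside the RLTR9, RLTR10, RLTR13 and RLTR17 series and the ETn LTR, and 0.24 over 22 families of RLTR9, RLTR13 and RLTR17. It was 0.69 over 13 families of IAP, the intracisternal A-particle, which still makes new insertions in mice. It was 0.83 over 7 families of MMERVK10C and RLTR10. It was 0.01 over 5 ETn and MusD families. At least a 1.5-fold higher value was found for 8 of the 35 families described here, 4 of the 47 RLTR families, 1 of the 22, 7 of the 13 IAP families, 5 of the 7 and 1 of the 5, against the background of 15.1%. With 1 library per group these differences between lists were not tested, and families that share multi-mapped reads are not independent.

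**Figure D4:**
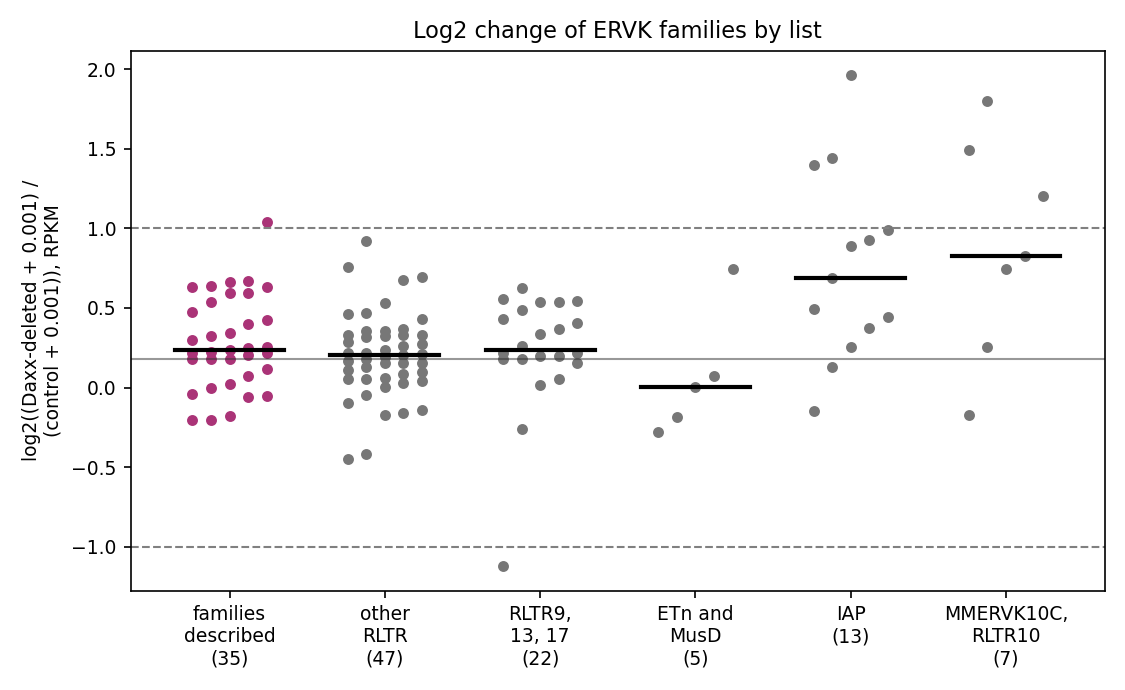
Log2 change of the ERVK families at the floor in 6 lists; each point is 1 family, the black bars are medians, the number under each list is its families at the floor, the grey line is the median of 436 families and dashed lines mark 2-fold. The bar of the 35 families described here stands at 0.24, beside 0.20 and 0.24 for the RLTR lists, 0.01 for ETn and MusD, 0.69 for IAP and 0.83 for MMERVK10C and RLTR10.

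Summed over the 35 families, the RPKM was 1.23 in the control and 1.53 in the Daxx-deleted library, a ratio of 1.24. The sum over all 436 families had a ratio of 1.13. Without RMER16-int the log2 ratio of the sums went from 0.31 to 0.26. Of the RPKM summed over all 150 ERVK families, the 45 families made up 12.9% in the control and 14.8% in the Daxx-deleted library. This share also depends on the other lists. At the floor, ETn and MusD summed to 4.09 and 3.96 RPKM, and the 47 other RLTR families to 3.06 and 2.96 RPKM. The sums of IAP, of MMERVK10C and RLTR10, and of RLTR9, RLTR13 and RLTR17 were higher after deletion. These sums add values scaled by length, and they are led by the families of high level: RMER16-int made up 9.66% of the control sum of the 45 families, SRV_MM-int 8.22% and MMTV-int 7.39%.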

How the data were processed

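RNA from 2 cultures, 1 per group, was sequenced after TruSeq RNA library preparation, per the labels' protocols. The values are the RPKM that the authors deposited for each transposable element family, beside the number of its annotated copies. Reads were placed on mm9 with JAGuaR 2.1, which uses BWA together with Ensembl 67 exon junctions, per the file headers and the information sheet. The RPKM scale came from exonic reads of protein-coding genes; mitochondrial genes, ribosomal proteins and the 0.5% most expressed exons were excluded. BWA 0.7.10 is named in the submitters' processing notes. Multi-mapped reads were retained, so related families, or the LTR and internal part of an element, can carry the same reads. The repeat annotation, the use of strand and the division of multi-mapped reads are not stated in the labels or the file headers.

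The log2 change is log2((Daxx-deleted + 0.001) / (control + 0.001)) in RPKM, which understates the change of low families. A ratio is the quotient of the deposited values. Counts and medians cover families with 100 or more copies whose mean reaches 0.01 RPKM. Members, lists and settings were chosen with earlier results of these data known. Each of the 45 members is given a value. The rule for naming took the 12 highest and 8 lowest log2 changes, the 6 highest levels, the extremes of each name group, pairs of LTR and internal part of 1 name, and, outside the floor, the 4 highest levels and members at 0. The table holds 0 of 11 marker genes sought (ES cell, fibroblast and Daxx) and 0 columns of other samples. Depth is unknown: in 11 families with at most 20 copies, 5 ratios came within 0.4% of a quotient of whole numbers up to 8 at the best of 1387 common scalings, against a median of 1, and whole reads were not recovered. The counting code was checked on simulated families with set fold changes far past the threshold and no noise. That check does not cover families near the threshold or the floor. The alternatives are given in the closing section. Python 3.11.15, numpy 2.4.6, pandas 2.3.3, scipy 1.17.1 and matplotlib 3.10.9 were used.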

Additional observations from a re-analysis of the deposited data

How the results depend on the processing

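Single libraries give no error, so a log2 value counts as moved here when it differs by over 1.5-fold, and a count when it differs by over 1.5 times. The 1 family 2-fold higher became 0 with a pseudocount of 0.01 or 0.1 RPKM, with a floor of 0.05 RPKM, with at least 1000 copies, after subtraction of the median family and at 3-fold, and 8 at 1.5-fold. The 8 of 35 families 1.5-fold higher were recounted under alternatives chosen after seeing the data. Raising the pseudocount to 0.01 RPKM left 3 of the 35, and raising it to 0.1 RPKM left 0. The share over all families is not given for either. Raising the floor to 0.05 RPKM left 3 of only 9 families, against 18 of all 145 families at that level. The drop from 8 to 3 there is therefore no lower share. Subtracting the median family left 1 of the 35, against 41 of all 436. A larger pseudocount and a smaller set of families lower these counts by construction. The count of 0 families 2-fold lower did not move under any alternative. The median log2 change ran from 0.05 with a pseudocount of 0.1 RPKM to 0.30 with a floor of 0.05 RPKM, and kept its sign. All 43 alternative medians of name groups stayed within the limit. Among the 33 families that the naming rule took, 131 alternative values stayed within it and 1 moved. A value below 0.58 in size could not move by falling to 0, and every main median of a name group was below that. RMER3D1 to RMER3D4, listed at 0, have a log2 change of 0 under any pseudocount. The moved value was that of RMER17A-int, 0.16 with a pseudocount of 0.1 RPKM. Subtracting the median family left 25 of the 28 higher families above it and turned the sign of RMER4B, RMER6B and RMER12B, and of RMER17D2 outside the floor, to -0.16, -0.10, -0.06 and -0.08. The unknown depth leaves the error of the lowest values unmeasured. No paired analysis was possible because 1 library stands for each group.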

Other observations

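The name RMER also covers 8 families outside class II, annotated as ERVL or ERV1. They were looked up after the values of the class II families were seen. Of the 7 at the floor, 6 were higher in the Daxx-deleted library and 0 reached 1.5-fold, where 78.9% of all 436 families were higher and 15.1% were 1.5-fold higher. The log2 changes of these 7 lay between -0.05 and 0.22, median 0.08. RMER2, an ERV1 LTR under the floor, had the largest log2 change of the 8, 0.42, at 0.00771 and 0.0106 RPKM. RMER15, an ERVL LTR with 17626 copies, stood at 0.0508 RPKM in control cells and 0.0556 RPKM after deletion, and RMER15-int at 0.0181 and 0.0204 RPKM. RMER10A stood at 0.0378 and 0.0393 RPKM. RMER21A, an ERV1 LTR with 632 copies, had the highest level of the RMER LTRs of the table, at 0.177 and 0.188 RPKM, and RMER5 stood at 0.0198 and 0.0232 RPKM. Only RMER5 of these 7 lay above the median of all families in log2 change. The difference from the class II RMER families was not tested.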
